A study of Rattus norvegicus with 16 samples.

Results

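The Rab genes encode small GTPases that direct vesicle traffic, and their mRNA was measured here in the rat hypothalamus. They were taken as all probe sets for which the array's annotation table gave a single gene symbol made of Rab, a number and at most a letter and a further digit. This rule gave 97 of 31042 probe sets that are not array controls, and 56 of 14217 genes that the table names by a single symbol. The rule read names only and used no measured value. The arrays held RNA of 16 male Wistar rats aged 7 to 8 weeks, 1 array per rat and 4 rats per group. The rats had restraint stress together with inhaled (R)-(-)-linalool for 2 h (stress with linalool), restraint stress alone for 2 h (stress), inhaled (R)-(-)-linalool alone for 2 h (linalool), or neither (control). Linalool is a floral-smelling terpene alcohol of many plants, and (R)-(-) names a mirror-image form of it. The labels name no transgene or deletion and state no dose of the odorant. The study asked what inhaling an odorant does to hypothalamic gene expression under restraint.

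A Rab protein switches between a GTP-bound form, which sits on a membrane and recruits effector proteins, and a GDP-bound form, which a carrier protein can lift off the membrane. Exchange factors load GTP, GTPase-activating proteins speed its hydrolysis, and a prenyl group added by Rab geranylgeranyl transferase anchors the protein. Each Rab marks particular membranes: Rab1 and Rab2 serve traffic between endoplasmic reticulum and Golgi, Rab5 early endosomes, Rab7 late endosomes, Rab11 recycling endosomes, and Rab3 and Rab27 secretory vesicles. In the hypothalamus such traffic serves synaptic vesicles and the release of peptides from neurosecretory neurons. Rab14 works between the trans-Golgi network and early and recycling endosomes, and Rab8b in transport from the Golgi to the plasma membrane.

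Among the Rab genes Rab14 carried the only called changes and Rab8b the next largest averaged linalool difference, so the 250 bases before the annotated start of each are shown, from RefSeq on the rat build GRCr8 and read along the gene's strand, 5′ to 3′. Capitals mark matches to the CCAAT box (CCAAT or its complement ATTGG) and the GC box (GGGCGG or CCGCCC).
Rab14, chr3:38911685-38911934, minus strand: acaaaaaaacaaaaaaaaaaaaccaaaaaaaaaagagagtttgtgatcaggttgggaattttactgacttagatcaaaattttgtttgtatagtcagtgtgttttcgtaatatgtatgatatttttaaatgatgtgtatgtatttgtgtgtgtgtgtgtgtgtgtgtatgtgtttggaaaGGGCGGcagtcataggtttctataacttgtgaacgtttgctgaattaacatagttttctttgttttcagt
Rab8b, chr8:76417549-76417798, minus strand: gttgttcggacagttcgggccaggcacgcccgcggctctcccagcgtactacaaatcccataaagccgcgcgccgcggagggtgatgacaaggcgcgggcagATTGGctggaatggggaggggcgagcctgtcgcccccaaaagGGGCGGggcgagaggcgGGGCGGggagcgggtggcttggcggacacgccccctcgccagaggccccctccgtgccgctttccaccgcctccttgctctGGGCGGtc
The Rab14 window is 30.4% G and C and holds 1 GC box and 0 CCAAT boxes. The Rab8b window is 71.2% G and C and holds 3 GC boxes and 1 CCAAT box. Windows were available for 45 of the 56 Rab genes, and their median GC content was 62.8%, against 51.2% over the windows of all 33469 genes in the table. GC boxes were in 35 of the 45 Rab windows (77.8%) and in 30.5% of all windows, and CCAAT boxes in 33.3% of the Rab windows and 34% of all. Searched on both strands, the full palindromic glucocorticoid response element was in 0 of the 45 Rab windows and in 0.012% of all. Its half-site TGTTCT was in 3 Rab windows (Rab3a, Rab17 and Rab39a; 6.67%) and in 17.5% of all, and the cAMP response element TGACGTCA was in 1 Rab window (Rab25; 2.22%) and in 1.59% of all. A heat shock element of 3 alternating GAA units was in 0 Rab windows and in 0.663% of all. These matches describe letters in a window, and whether transcription starts there in the hypothalamus was not tested.

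Some arrays stood apart. The BioC hybridization spike-in signal was 915.9 to 968.4 in rat 2 of stress with linalool and rats 2 and 4 of linalool, against 247.5 to 283.4 on the other 13 arrays. The log2 ratio of the 3′ to the 5′ beta-actin signal, a measure of RNA integrity and labelling, ran from 1.06 to 2.3, with the highest value in control rat 1. Control rat 1 had the lowest level of all arrays in 25 of the 79 Rab probe sets tested (31.6%), and it was lowest in 12.2% of all probe sets tested. Control rat 2, whose median deposited signal of 67.03 was the lowest of all arrays (range to 127.4), had the highest level in 17 Rab probe sets (21.5%), against 14.6% of all. Of 12 hypothalamus markers 11 were on the array and all 11 lay above the median of all probe sets, with Avp, Oxt and Pmch at percentiles 99, 99.5 and 99.8. The arrays labelled as restrained carried the known glucocorticoid response: Sgk1 was higher in the averaged stress comparison by 2.17 on the log2 scale (SE 0.08, adjusted p = 3.65e-10) and Fkbp5 by 0.97 and 0.81 in 2 probe sets. In bulk tissue, fewer cells of a type and less RNA per cell cannot be told apart.

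Levels below are log2 of the quantile-normalized signal plus 16, and differences are log2 fold changes on that scale, which understate changes of dim probe sets. Each probe set has its own brightness, so levels are compared between rats and not between probe sets. Probe sets were tested where their mean log2 signal reached the 40th percentile of all, which kept 79 of the 97 Rab probe sets and 47 of the 56 genes. Of the 18 left out, those of Rab17, Rab19, Rab20, Rab25, Rab37, Rab38, Rab39a, Rab3d and Rab43 were all that their genes had. The nearest members below the limit were a probe set of Rab40b and one of Rab14, both with a mean log2 signal of 5.77, and the nearest above were one of Rab5b (5.97) and one of Rab8b (5.98). A change is called where limma's p-value, adjusted over all 18625 probe sets tested, is under 0.05.

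Across the family, Rab mRNA levels were called different at 1 probe set, 1367884_at of Rab14. It was lower in stress than in control rats, higher in stress with linalool than in stress rats, and higher in the linalool effect averaged over unrestrained and restrained rats. That is 1 of 79 Rab probe sets (1.27%) in each of these comparisons, against 0.902%, 0.65% and 0.714% of all probe sets tested in them. In the direction of the Rab14 change alone, the background was 0.274% lower, 0.596% higher and 0.596% higher. The Rab share rests on 1 probe set in each and is not a result about the family. For stress with linalool minus linalool the count was 0 (background 1.69%), for stress with linalool minus control 0 (background 4.03%) and for the averaged stress effect 0 (background 4.24%). Linalool minus control and the interaction of stress and linalool also called 0 Rab probe sets, with a background of 0% in both. At an unadjusted p under 0.05 limma found 6, 9, 9, 11 and 4 Rab probe sets in these 5 comparisons, which is 7.59%, 11.4%, 11.4%, 13.9% and 5.06% of the 79, against 16.3%, 18.8%, 18.9%, 9.85% and 8.02% of all. In the 3 comparisons with a call the same count was 8 for stress minus control (10.1%, background 12.6%), 9 for stress with linalool minus stress (11.4%, background 12.7%) and 17 for the averaged linalool effect (21.5%, background 14.8%).

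The typical Rab probe set moved little. The median Rab change was -0.049 for stress minus control, where the median over all probe sets was 0.003, and 31 of 79 Rab probe sets were positive (39.2%, against 50.7% of all). For stress with linalool minus stress it was 0.026, against -0.021 over all, and 51 of 79 were positive (64.6%, against 44.4% of all). For the averaged linalool effect it was 0.032, against -0.008 over all, and 52 of 79 were positive (65.8%, against 47.5% of all). These comparisons share arrays (the stress rats are in each), so their values are given side by side and are not independent. The 95% interval of the change lay within 0.5 either way for 65 of the 79 probe sets in stress minus control, for 60 in stress with linalool minus stress, for 56 in linalool minus control and for 36 in the interaction. Changes larger than 1 were outside the interval for 78, 78, 79 and 75 probe sets in the same 4 comparisons. The spread between rats of a group had a median SD of 0.18 over the Rab probe sets, against 0.17 over all, and ran from 0.04 (Rab2a, 1392681_at) to 0.55 (Rab5b, 1392643_at).

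**Figure D1:**
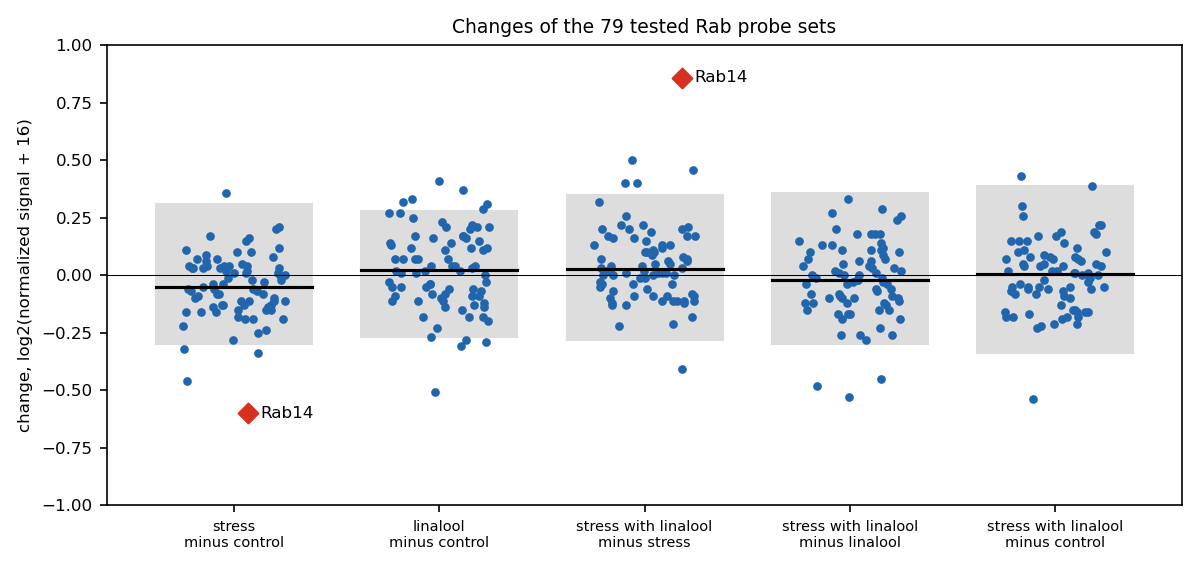
Log2 change of each tested Rab probe set (points) in the comparisons of group pairs. The averaged effects and the interaction are not drawn. The grey box spans the 5th to 95th percentile of all 18625 probe sets tested. A black line marks the Rab median, and red diamonds mark an adjusted p under 0.05. The diamonds are Rab14 1367884_at, at -0.60 and 0.86.

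Rab14 mRNA at 1367884_at was lowest in the restrained rats that had no odorant. Its log2 level was 10.62, 10.78, 10.60 and 10.71 in rats 1 to 4 of stress with linalool, and 9.97, 9.77, 9.77 and 9.75 in stress rats 1 to 4. In linalool rats 1 to 4 it was 10.61, 10.47, 10.50 and 10.62, and in control rats 1 to 4 it was 10.78, 10.35, 10.26 and 10.28. Every stress rat was below every rat of the other groups, and control rat 1 stood above the other controls. The group means were 10.68 ± 0.08 in stress with linalool, 9.82 ± 0.1 in stress, 10.55 ± 0.08 in linalool and 10.42 ± 0.24 in control rats (SD, n = 4 each).

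As the authors deposited it, before normalization here, the Rab14 signal intensity was 1743, 1907, 1699 and 1798 in stress with linalool rats and 1003, 1081, 905.7 and 773.1 in stress rats. In linalool rats it was 1457, 1305, 1055 and 1355, and in control rats 2082, 854, 1246 and 1376. On this scale too the stress with linalool and stress rats did not overlap, while the stress and control rats did, through control rat 2.

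**Figure D2:**
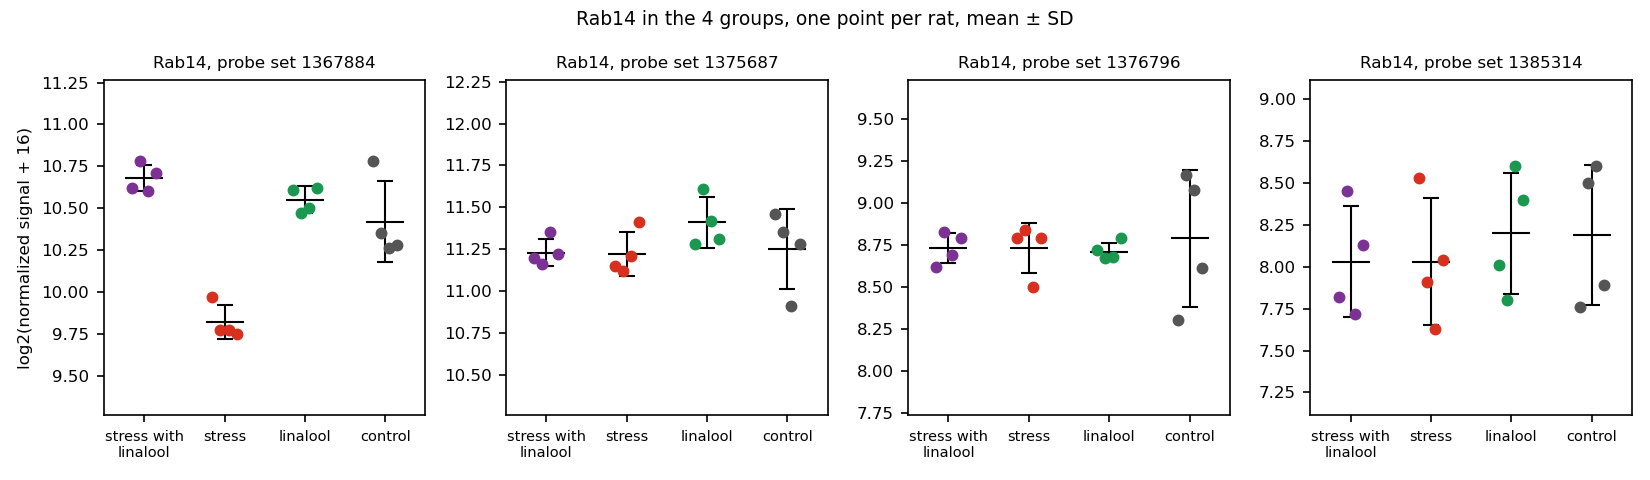
Log2 level of each tested Rab14 probe set, 1 panel each, in each rat (points) with the group mean and SD (n = 4 each). At 1367884_at the 4 stress rats lie between 9.75 and 9.97, below all 12 other rats. The other panels do not show this pattern.

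Stress rats had 0.66 times the Rab14 signal of control rats (log2 difference -0.60, SE 0.10, adjusted p = 0.0114). Stress with linalool rats had 1.82 times that of stress rats (0.86, SE 0.10, adjusted p = 0.00423), which is the smallest p of all 18625 probe sets in this comparison. The linalool effect averaged over unrestrained and restrained rats was 0.50 (SE 0.07, 1.41-fold, adjusted p = 0.0106). Without stress, linalool minus control was 0.13 (adjusted p = 0.699), and with linalool, stress with linalool minus linalool was 0.13 (adjusted p = 0.572). Stress with linalool minus control was 0.26 (adjusted p = 0.175), and it passed without control rat 1 (0.38, adjusted p = 0.0142). The interaction, which asks whether linalool's effect differs between restrained and unrestrained rats, was 0.73 (SE 0.15, unadjusted p = 0.000137, adjusted p = 0.293), so that difference did not pass the threshold over all probe sets.

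The 3 Rab14 calls depended on the arrays and scaling used. The stress minus control call was lost with the deposited values left unnormalized (-0.50, adjusted p = 0.782), with the fit limited to those 8 rats (-0.60, adjusted p = 0.123) and without control rats 1 and 2 (-0.45, adjusted p = 0.0599). The stress with linalool minus stress call was lost only on the 13 arrays with low BioC signal (0.83, adjusted p = 0.0625). The averaged linalool call was lost with the deposited values (0.44, adjusted p = 0.712), with high BioC signal as a block (0.48, adjusted p = 0.08) and on the low BioC arrays alone (0.48, adjusted p = 0.142). The beta-actin log2 ratio was 1.34 to 1.8 in stress with linalool, 1.51 to 1.81 in stress, 1.52 to 1.74 in linalool and 1.06 to 2.3 in control rats, and with it as a covariate the 3 calls stood at -0.65, 0.92 and 0.51.

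The other Rab14 probe sets did not show this pattern. For 1375687_at stress with linalool minus stress was 0.01 (95% interval -0.23 to 0.25) and stress minus control was -0.02. For 1376796_at the same differences were 0.00 (-0.31 to 0.32) and -0.06, and for 1385314_at 0.00 (-0.5 to 0.5) and -0.16. For all 3 the interval leaves out the stress with linalool minus stress difference of 0.86 seen at 1367884_at. The fifth Rab14 probe set, 1397463_at, was too dim to be tested, with means of 6.6 in stress with linalool, 6.18 in stress, 5.9 in linalool and 5.98 in control rats. The platform's table pairs 1367884_at with a RefSeq mRNA record and the others with other sequence records or none. Which part of the transcript each reads was not analysed here.

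**Figure D3:**
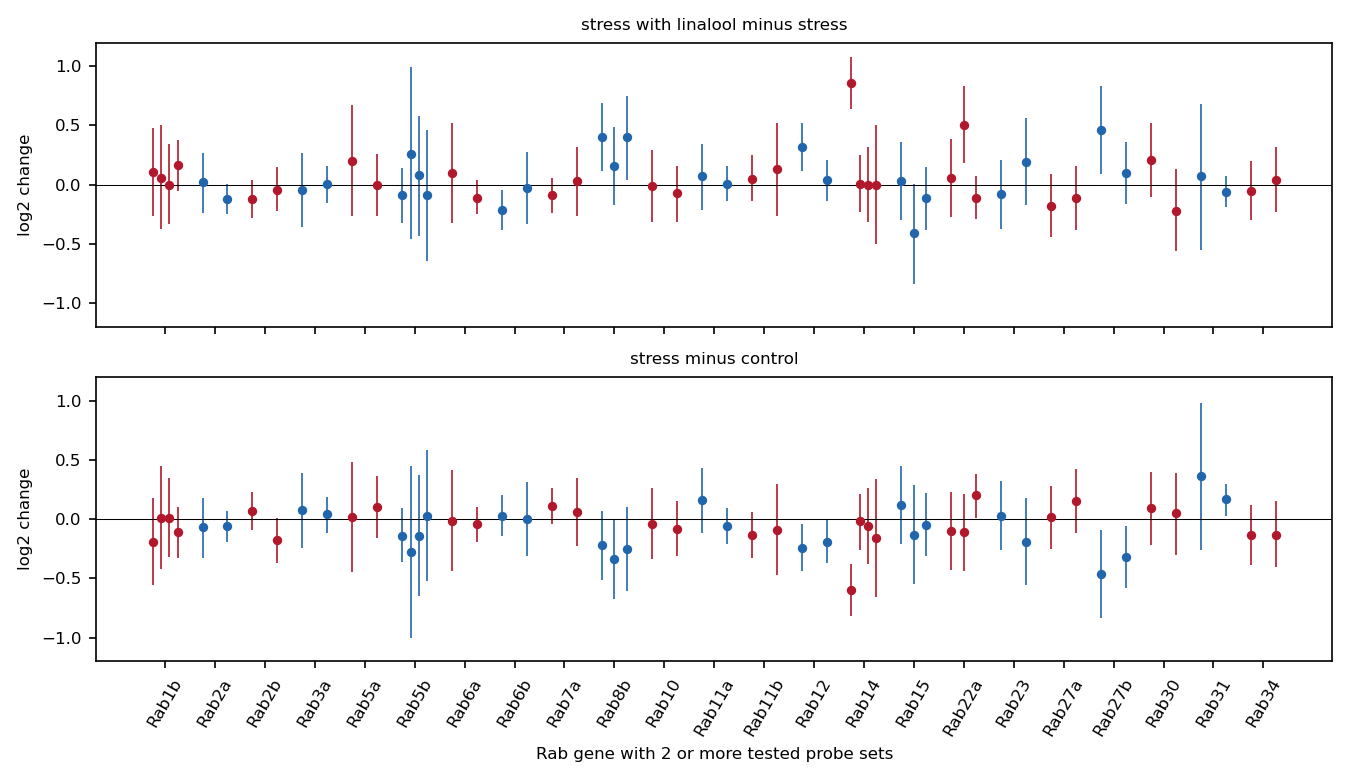
Log2 change of each tested probe set of the 23 Rab genes with at least 2, with bars for the 95% interval, for stress with linalool minus stress (top) and stress minus control (bottom). Rab14 has the widest span in both panels, 0.86 and 0.58.

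Probe sets of a gene mostly differed by less in the family. In the 23 genes with at least 2 tested probe sets, the median span between probe sets was 0.18 for stress with linalool minus stress and 0.12 for stress minus control. Rab14 had the largest span in both, at 0.86 and 0.58. All probe sets of a gene had the same sign in 12 and 15 of the 23 genes. For linalool minus control the largest span was 0.88, in Rab8b. Rab15, an endosomal Rab, had the largest span in both comparisons of stress with linalool to linalool and to control, 0.67 and 0.69. For the averaged linalool effect the median span was 0.16, and Rab8b had the largest at 0.56. Rab14 spanned 0.53 and Rab22a 0.43 there. The probe sets of the early endosome Rab5b spanned 0.24, those of the Golgi Rab1b 0.14, those of Rab10 0.08 and those of Rab11b 0.06.

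Rab8b had the averaged linalool difference nearest to Rab14's in size. At 1370539_at its level was 8.46, 7.92, 8.39 and 8.47 in stress with linalool, 8.31, 7.74, 7.74 and 7.83 in stress, 8.33, 8.47, 8.46 and 8.39 in linalool, and 8.22, 8.00, 8.25 and 8.03 in control rats. Linalool rats did not overlap control rats, whereas stress with linalool rat 2 and stress rat 1 crossed into the other group's range. The averaged linalool effect was 0.35 (SE 0.10, adjusted p = 0.11) and did not pass the threshold. At 1391347_at, named here after its values were seen, it was 0.38 (SE 0.12, adjusted p = 0.145). At 1383709_at it was -0.18 (adjusted p = 0.483), opposite in sign, while stress with linalool minus stress was 0.16 and had the sign of the other 2 probe sets (up to 0.40). Linalool minus control at 1383709_at was -0.51 (adjusted p = 0.345), with 6.25, 6.24, 5.97 and 5.78 in linalool rats and 6.34, 6.70, 6.90 and 6.34 in control rats. Without stress rat 1 the averaged effect passed at the first 2 of these, with 0.41 (adjusted p = 0.0292) and 0.47 (adjusted p = 0.0316), and stress with linalool minus stress passed at 1370539_at (0.54, adjusted p = 0.0472).

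**Figure D4:**
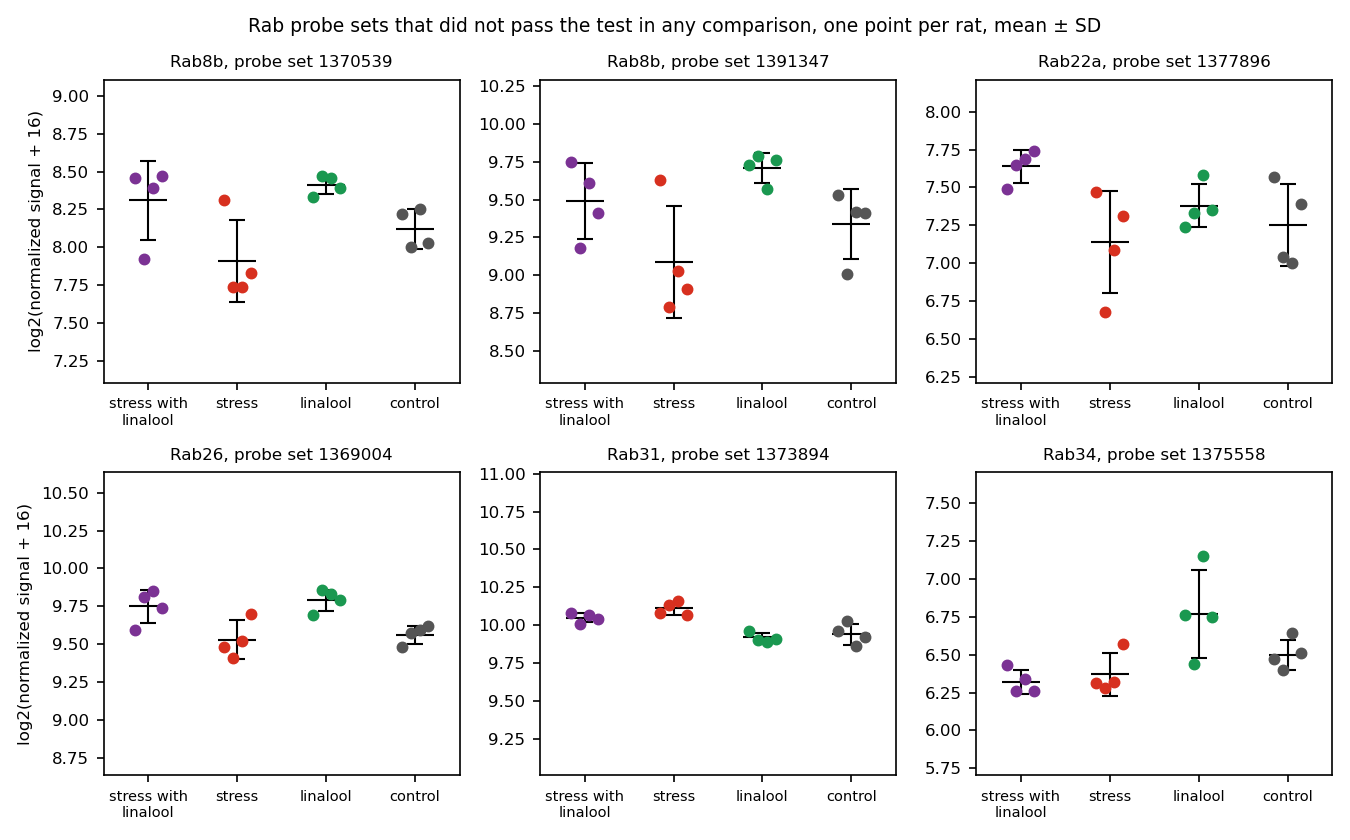
Log2 levels in each rat (points) with the group mean ± SD (n = 4 each) for 6 probe sets of Rab8b, Rab22a, Rab26, Rab31 and Rab34. With all arrays in the fit, none of the 6 passed an adjusted p of 0.05 in any of the 8 comparisons, and in Rab26 the linalool rats lie above all control rats.

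Rab genes of regulated secretion were called in no comparison (8 genes, 9 probe sets tested of 6 genes). Rab26, which is found on secretory granules and synaptic vesicles, stood at 9.59, 9.81, 9.85 and 9.74 in stress with linalool and at 9.48, 9.41, 9.52 and 9.70 in stress rats. It stood at 9.69, 9.86, 9.83 and 9.79 in linalool and at 9.48, 9.57, 9.59 and 9.62 in control rats. All linalool rats were above all control rats, and the averaged linalool effect was 0.22 (adjusted p = 0.0888). Rab27b, which docks secretory vesicles at the membrane, had 6.46, 6.54, 6.46 and 6.61 in stress rats at 1370122_at and 7.39, 6.56, 6.65 and 7.31 in control rats, a difference of -0.46 (adjusted p = 0.28). Control rats fell into a low and a high pair there, and 1 of the low pair lay within the range of the stress rats. Rab3a, the main Rab of synaptic vesicles, had averaged stress effects of -0.10 and 0.01 and averaged linalool effects of 0.13 and 0.04 at its 2 probe sets (adjusted p of 0.581 to 0.966). In stress with linalool minus linalool all 9 secretory probe sets were negative, with a median of -0.06, and 0 of them had an unadjusted p under 0.05.

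Rab genes of early and recycling endosomes (15 genes, 27 probe sets tested) included Rab14. In stress with linalool minus stress 21 of the 27 were positive, with a median of 0.06, and in stress minus control 17 were negative, with a median of -0.06. Rab22a, which acts on early endosomes, stood at 7.49, 7.65, 7.69 and 7.74 in stress with linalool at 1377896_at and at 7.47, 6.68, 7.09 and 7.31 in stress rats, with no overlap and a difference of 0.50 (adjusted p = 0.161). Its 3 probe sets ran from -0.11 to 0.50 in that comparison. Rab31, a relative of Rab22a in trans-Golgi to endosome traffic, had 10.08, 10.13, 10.16 and 10.07 in stress rats at 1373894_at and 9.96, 10.03, 9.86 and 9.92 in control rats. The groups did not overlap, the difference was 0.17 (adjusted p = 0.277) and the averaged stress effect was 0.15 (adjusted p = 0.0678), which passed without control rat 2 (0.17, adjusted p = 0.0411). Rab15 at 1373646_at had 8.67, 8.44, 8.12 and 8.42 in stress with linalool and 9.20, 8.93, 8.90 and 8.79 in control rats, which did not overlap (-0.54, adjusted p = 0.146). Rab5a had averaged stress effects of 0.01 and 0.09 and averaged linalool effects of 0.21 and 0.02, and Rab11a had -0.09 and 0.13 and then 0.04 and 0.10, none past the threshold.

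Late endosome, lysosome and autophagy Rabs (8 genes, 10 probe sets tested) showed 0 calls. Rab12, which acts in late endosomal and lysosomal degradation, had 7.93, 8.07, 8.15 and 8.23 in stress with linalool at 1371055_at and 7.78, 7.67, 7.64 and 8.01 in stress rats, overlapping through 1 stress rat, with a difference of 0.32 (adjusted p = 0.148). Rab7b, a late endosomal Rab, had 6.68, 6.45, 6.35 and 6.91 in stress with linalool and 7.29, 6.92, 7.25 and 7.05 in linalool rats. The 2 groups just did not overlap, and the difference was -0.53 (adjusted p = 0.139). Rab7a, which drives late endosomes to lysosomes, had averaged effects of -0.01 to 0.10 at its 2 probe sets for both factors. In linalool minus control 8 of the 10 probe sets were positive, with a median of 0.12. Among them Rab24, a Rab tied to autophagy and named here after its values were seen, had 9.21, 9.23, 9.22 and 9.22 in linalool and 9.00, 9.01, 9.15 and 9.06 in control rats. These did not overlap, and the difference was 0.17 (adjusted p = 0.427).

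Rabs of the endoplasmic reticulum and Golgi (14 genes, 20 probe sets tested) had changes between -0.19 and 0.09 in stress minus control. There 0 had an unadjusted limma p under 0.05. In linalool minus control the changes ran from -0.28 to 0.41, and 5 of the 20 had such a p (background 9.85%). The count was 6 in the averaged linalool effect (background 14.8%) and 4 in stress with linalool minus control (background 18.8%). It was 0 to 2 in the remaining comparisons, and 0 were called in any. Rab34, a Golgi and ciliary Rab, had 6.43, 6.26, 6.34 and 6.26 in stress with linalool at 1375558_at and 6.76, 6.44, 7.15 and 6.75 in linalool rats, with no overlap. That difference was -0.45 (adjusted p = 0.0683) and the averaged stress effect -0.29 (adjusted p = 0.0616). Both passed once high BioC signal was a block, at -0.51 (adjusted p = 0.0244) and -0.32 (adjusted p = 0.0258), and both passed without linalool rat 2 (-0.57, adjusted p = 0.0225, and -0.35, adjusted p = 0.0189). The averaged effect also passed without stress rat 4 (-0.33, adjusted p = 0.0452). With the deposited values the 2 changes at 1375558_at were -0.11 (adjusted p = 0.615) and -0.08 (adjusted p = 0.657). The medians over all probe sets were then 0.32 and 0.21. At the other tested probe set of Rab34 the same changes, with normalized values, were -0.11 and -0.12. Rab2a at 1392681_at, the Rab probe set with the least spread, had 12.09, 12.07, 12.12 and 12.01 in stress with linalool and 12.34, 12.25, 12.22 and 12.21 in control rats. They did not overlap, and the difference was -0.18 (adjusted p = 0.113). Rab2b at 1388892_at had 10.30, 10.35, 10.22 and 10 in linalool and 10.62, 10.51, 10.33 and 10.55 in control rats, a difference of -0.28 (adjusted p = 0.345) with an overlap of 1 rat on each side. The Golgi Rab36 had 8.26, 8.57, 8.93 and 8.42 in linalool and 7.72, 8.29, 8.36 and 8.17 in control rats, a difference of 0.41 (adjusted p = 0.375) in which linalool rat 1 lay within the control range. Rab6a at 1372707_at, also named after its values were seen, had 11.98, 12.02, 12 and 12 in linalool and 12.02, 12.28, 12.26 and 12.15 in control rats, which did not overlap before rounding (-0.18, adjusted p = 0.408). Rab6a acts in traffic through the Golgi. Rab1a, needed for transport from the endoplasmic reticulum to the Golgi, had 12.41, 12.26, 12.37 and 12.21 in stress with linalool and 12.15, 12.20, 12.14 and 12.08 in control rats, and averaged stress and linalool effects of 0.08 and 0.09. Rab1b at 1382946_a_at passed for the averaged stress effect only without control rat 1 (-0.28, adjusted p = 0.0341).

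Rabs of trans-Golgi to surface transport and the cilium (6 genes, 10 probe sets tested) included Rab8b. In stress minus control 9 of the 10 were negative, with a median of -0.12, and 1 had an unadjusted p under 0.05. In linalool minus control 8 were negative, with a median of -0.10. Rab28, which is linked to the primary cilium, had 11.01, 11.01, 11.14 and 11.09 in stress with linalool and 11.29, 11.18, 11.37 and 11.18 in linalool rats, with no overlap and a difference of -0.19 (adjusted p = 0.242). The pigment granule Rab32 and the less studied Rab40 genes gave 3 more tested probe sets, with changes between -0.12 and 0.17 in the 5 comparisons of group pairs.

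**Figure D5:**
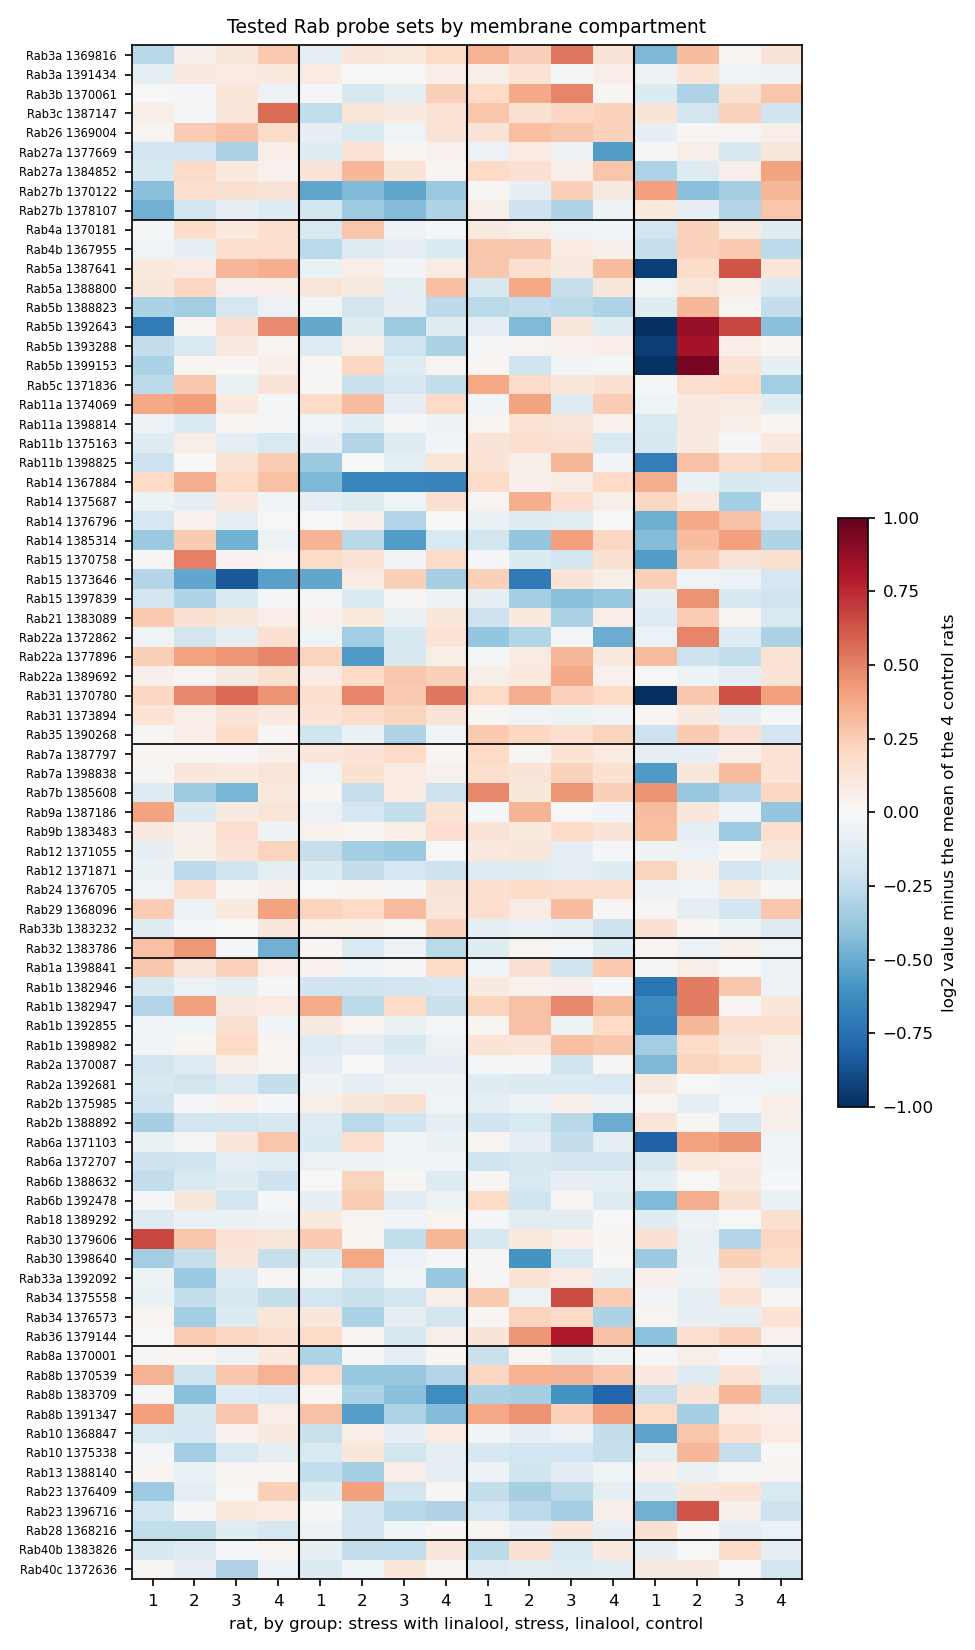
Log2 level of each tested Rab probe set in each rat minus its mean in the 4 control rats, ordered by role. Colours end at 1 either way. Control rat 1 shows many low values, with 25 of 79 probe sets at their lowest there.

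Rab probe sets whose rats did not overlap between 2 groups were counted for each pair. There were 3 in stress minus control (3.8%, background 5.92%), 9 in stress with linalool minus stress (11.4%, background 10.4%), 7 in stress with linalool minus linalool (8.86%, background 12.3%), 5 in stress with linalool minus control (6.33%, background 10%) and 8 in linalool minus control (10.1%, background 4.74%). The 8 were 3 probe sets of Rab8b and 1 each of Rab26, Rab6a, Rab5b, Rab24 and Rab2a, 4 higher and 4 lower in linalool rats. The first 4 shares were near or below the background, and the last was above it, with 0 of these probe sets called.

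Control rat 1 often stood below the other controls. In 20 Rab probe sets it lay more than 0.5 below the mean of the other controls, and in 2 it lay more than 0.5 above. The gap was -1.77 for Rab31 1370780_at, -1.49 for Rab5b 1392643_at and -1.25 for Rab5a 1387641_at. The gap was smaller at another Rab5b probe set, 1388823_at (-0.17), and at Rab11a 1398814_at (-0.21). The part of RNA integrity in these gaps was not tested. Without control rat 1 the median Rab change of stress minus control was -0.111, and without control rat 2 it was 0.021, against -0.049 with all arrays, so leaving out rat 2 turned its sign. With the deposited values left unnormalized it was 0.057, where the median over all probe sets was 0.10.

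Among genes that act on Rab proteins, few were called, and these lists were not chosen independently of the data. Of the delivery and prenylation genes (7 genes, 10 probe sets) Rabggta, the alpha subunit of Rab geranylgeranyl transferase, fell with stress. Its means were 7.76 in stress with linalool, 7.82 in stress, 8.18 in linalool and 8.16 in control rats, and the averaged stress effect was -0.38 (SE 0.07, adjusted p = 0.0048). That is 1 of 10 probe sets, against 4.24% of all. The call held in 26 of 27 alternative settings and was lost with the deposited values (-0.16, adjusted p = 0.394). The median of the list's averaged stress effects was -0.093, against -0.01 over all probe sets.

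Of the exchange factors (38 genes, 54 probe sets) 2 probe sets passed for the averaged stress effect, 1 higher and 1 lower. That is 3.7%, against 4.24% of all probe sets tested, so the share is at the background. Rin2, an exchange factor for Rab5, was higher with restraint, with means of 9.6 in stress with linalool, 9.59 in stress, 9.23 in linalool and 9.29 in control rats (0.33, SE 0.06, adjusted p = 0.00425). It passed in 27 of 27 alternative settings. Trappc5, a subunit of the TRAPP exchange complex for Rab1, was lower, with means of 8.54, 8.46, 8.7 and 8.74 in the same order (-0.21, adjusted p = 0.0211). Its sign turned with the deposited values (0.01). The call was also lost with no filter, on the low BioC arrays, without control rats 1 and 2, without stress rat 1 and without linalool rat 1 (adjusted p from 0.0501 to 0.0723). Sbf2, an exchange factor also called MTMR13, was lower in stress with linalool (6.02) than in stress rats (6.97; difference -0.95, SE 0.18, adjusted p = 0.0234), 1 of 54 probe sets (1.85%, background 0.65%). That call held in 17 of 27 alternatives. It was lost without stress rat 2, 3 or 4 or stress with linalool rat 1, 2 or 3, and with the deposited values, no filter, a block for high BioC signal or the low BioC arrays only (adjusted p from 0.051 to 0.158). Of the GTPase-activating proteins (26 genes, 35 probe sets) 0 were called in any of the 8 comparisons, with a median of -0.117 for stress with linalool minus stress.

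Of 69 effector probe sets (50 genes) 1 was lower in stress minus control (1.45%, background 0.902%) and 2 were higher in stress with linalool minus stress (2.9%, background 0.65%). In stress with linalool minus control 3 were lower (4.35%, background 4.03%), in the averaged stress effect 2 were lower (2.9%, background 4.24%) and in the averaged linalool effect 1 was higher (1.45%, background 0.714%). Each share rests on 1 to 3 probe sets. Inpp5b, an inositol polyphosphate 5-phosphatase that binds several Rabs, had its lowest mean in stress rats. Its means were 9.41 in stress with linalool, 8.84 in stress, 9.24 in linalool and 9.54 in control rats. It was lower in stress than in control rats (-0.70, SE 0.09, adjusted p = 0.00109) and higher in stress with linalool than in stress rats (0.57, SE 0.09, adjusted p = 0.00735), and both calls held with every single array left out. With the deposited values both were lost (-0.61, adjusted p = 0.447, and 0.63, adjusted p = 0.292), and on the low BioC arrays the second was lost (0.54, adjusted p = 0.0735). Myo5a, the myosin motor that carries Rab-bound vesicles along actin, was 9.79 in stress with linalool and 9.08 in stress rats (0.71, adjusted p = 0.043), a call that held in 11 of 28 alternatives and was lost without linalool rat 1, 2, 3 or 4, stress with linalool rat 1, 2, 3 or 4, stress rat 2, 3 or 4 or control rat 4 (adjusted p from 0.0523 to 0.137). Its averaged linalool effect was 0.49 (adjusted p = 0.047), and this call held in only 7 of 27 alternatives. It was lost without any single array other than control rat 1 and stress rat 1 (adjusted p from 0.0656 to 0.102). In stress with linalool minus control 3 effectors were lower. Golga5, a golgin that binds Rab1, differed by -0.46 (adjusted p = 0.0119). That call was lost with the deposited values (-0.30, adjusted p = 0.596), with only the compared groups fitted (adjusted p = 0.0833), on the low BioC arrays (adjusted p = 0.0736) and without control rats 1 and 2 (adjusted p = 0.0701). Sytl2, a Rab27 effector, differed by -0.72 (adjusted p = 0.0212), a call lost without control rat 3, without stress with linalool rat 1 or 2, without control rats 1 and 2, and with the deposited values (adjusted p from 0.0562 to 0.261). Micall2, an effector of Rab8 and Rab13, differed by -0.62 (adjusted p = 0.0285), a call that held in 16 of 27 alternatives and was lost, among others, without control rat 1 or 4 or stress with linalool rat 1, 2 or 3 (adjusted p from 0.0532 to 0.0868).

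Marker levels of cell types were compared over the same groups. The summed log2 level of 10 neuron marker genes was 14.93 to 15.06 in stress with linalool, 15 to 15.15 in stress, 14.96 to 15.14 in linalool and 14.99 to 15.16 in control rats, and 0 of 13 neuron probe sets were called in any comparison. Among microglia markers 2 of 12 probe sets, both of P2ry12, were lower in stress than in control rats (16.7%, background 0.902%). In the averaged stress effect 3 of 12 were lower (25%, background 4.24%), with changes of -1 and -0.72 for P2ry12 and -0.49 for Cx3cr1. The microglia list as a whole had a median change of -0.002 there, with a highest value of 0.35. In stress minus control its median was -0.195 and its highest value 0.09. At 1380822_at the P2ry12 means were 8.22 in stress with linalool, 8.27 in stress, 9.27 in linalool and 9.21 in control rats, so P2ry12 was low in both restrained groups. In stress with linalool minus stress 0 of the 12 were called, but the list's median was 0.22, against -0.021 over all probe sets. Its changes there ran from -0.2 to 0.72. The summed level of the 11 microglia genes on the array, of which 10 were tested, was 11.86 to 12.7 in stress with linalool and 11.66 to 12.03 in stress rats. It was 11.88 to 12.15 in linalool and 12.03 to 12.11 in control rats. The lowest microglia sum was in a stress rat. The part of these markers in the Rab14 differences, in stress minus control and in stress with linalool minus stress, was not tested. Of the astrocyte markers Aqp4 was higher in stress with linalool than in stress rats by 0.48 (adjusted p = 0.0443), 1 of 14 probe sets (7.14%, background 0.65%). Of the oligodendrocyte, endothelial, blood cell and anterior pituitary marker probe sets, 0 were called in stress minus control or stress with linalool minus stress. Uncalled changes could be large. The 3 tested pituitary probe sets ran from 0.26 to 1.28 in the first comparison and from -2.3 to -0.09 in the second. The 3 tested blood cell probe sets ran from -0.05 to 0.83 and from -0.88 to -0.17. The summed pituitary level varied from 8.16 to 12.77 among control rats alone. The part of these changes in the Rab14 differences was not tested. In stress with linalool minus control, Golga5, Sytl2, Micall2 and Rabggta were lower. Rabggta differed by -0.41 (adjusted p = 0.0299), a call that held in 18 of 28 alternatives. Among markers, 2 of 17 oligodendrocyte probe sets (Opalin, -1.31, and Cnp, -0.43) and 1 of 11 endothelial (Slco1a4, -0.60) were lower too. So were 3 of 12 microglia probe sets (P2ry12, -0.99 and -0.65, and Cx3cr1, -0.49), and the astrocyte marker Gjb6 was higher (0.35). The oligodendrocyte, endothelial and microglia shares were 11.8%, 9.09% and 25%, against 4.03% of all, and each rests on 1 to 3 probe sets. The medians of these lists were -0.131, -0.182 and 0.028, and the highest microglia change was 0.75. Rabggta, Trappc5, Micall2 and Inpp5b were lower in the averaged stress effect. For Micall2 it was -0.45 (adjusted p = 0.0227), a call that held in 22 of 26 alternatives. For Inpp5b it was -0.26 (adjusted p = 0.0239), a call that held in 23 of 27. The Inpp5b mean was lower in stress (8.84) than in control rats (9.54). It was not lower in stress with linalool (9.41) than in linalool rats (9.24). In the averaged stress effect Opalin (-0.76, 1 of 17 probe sets) and Slco1a4 (-0.34, 1 of 11) were lower and Gjb6 (0.29, 1 of 14) higher. The background was 4.24%, and the medians of these 3 lists were -0.036, -0.029 and 0.075. In the averaged linalool effect the hypothalamus marker Sst was higher (0.37, adjusted p = 0.0419), 1 of 11 probe sets (9.09%, background 0.714%). No other marker probe set was called there. The median of the hypothalamus list was 0.165, against -0.008 over all probe sets. The part of these markers in the differences of Rab14 and of the genes that act on Rab proteins was not tested. The summed level of the 7 blood cell genes on the array, of which 3 were tested, ran from 11.62 to 12.75 in stress with linalool rats. In stress rats it ran from 12.47 to 13.35.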

How the data were processed

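Hypothalamic RNA of 16 rats was hybridised to 1 single-colour array each. The values used are the authors' deposited table of signal intensity on a linear scale, with 31099 probe sets. The submitters' processing notes name MAS5, which combines perfect-match and mismatch probes into 1 signal, per those notes without version or scaling target. Because the deposited intensity was not at a common level between arrays, values were quantile-normalized on the log2 scale here, so a shift shared by most transcripts cannot be seen. A pseudocount of 16 was added and log2 taken again. The 57 control probe sets were left out, and 18625 at or above the 40th percentile were kept.

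Gene names are those of the platform's annotation, which gave 1 symbol for 20826 probe sets, several for 436 and none for 9780. All 56 Rab genes were found in the current gene table, and 0 symbols changed. The rule for naming probe sets was an adjusted p under 0.05 in any comparison, or the 3 smallest p-values among Rab probe sets in each, plus Rab1a, Rab3a, Rab5a, Rab7a, Rab11a and Rab27b, genes with at least 2 tested probe sets, and up to 4 called probe sets of each regulator list per comparison. Members, roles, lists and tests were chosen with earlier results of these data known.

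All arrays entered 1 linear model of group means with 12 residual degrees of freedom, fitted and moderated in limma 3.58.1 (R 4.3.3; lmFit, eBayes) with two-sided p-values, with Benjamini-Hochberg adjustment over all kept probe sets in each of 8 comparisons. The interval level is 95%. The steps were tested on simulated data. The number of arrays limits precision. Each array is a separate rat per the labels, and no array repeated another. The labels do not say that rats with the same number in different groups are pairs, so the numbers were not taken to pair rats. Such rats deviated from their group means with correlations of -0.16 to 0.23 (24 pairs, 4 over 0.1). For rats with different numbers in different groups the correlations were -0.25 to 0.21 (72 pairs, 11 over 0.1). The alternatives were unnormalized values, trimmed-mean scaling, other pseudocounts and filters, fits on the compared groups only, a replicate block, high BioC signal as a block, low BioC arrays only, the beta-actin ratio as a covariate, each array left out and, chosen after seeing the data, control rats 1 and 2 left out together.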

Additional observations from a re-analysis of the deposited data

Results flagged for a closer look

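Of 112 groups examined (28 named Rab probe sets in 4 groups of 4 rats), 10 held a rat that stood far from the other 3 by Dixon's criterion, and chance gives about 1 in 20. All values are log2 levels. In the stress group, rat 1 stood high at Rab14 1367884_at with 9.97 (others 9.75 to 9.77) and at Rab8b 1370539_at with 8.31 (others 7.74 to 7.83). Stress rat 3 stood low at Rab14 1376796_at with 8.5 (others 8.79 to 8.84), and stress rat 4 stood high at Rab34 1375558_at with 6.57 (others 6.28 to 6.32). In the stress with linalool group, rat 1 stood low at Rab27b 1370122_at with 6.56 (others 7.11 to 7.14), at Rab2b 1388892_at with 10.17 (others 10.32 to 10.34), at Rab3a 1391434_at with 11.58 (others 11.76 to 11.78) and at Rab7a 1398838_at with 9.42 (others 9.51 to 9.53). Rat 2 of that group stood low at Rab8b 1370539_at with 7.92 (others 8.39 to 8.47). Among controls, rat 2 stood high at Rab3a 1391434_at with 11.82 (others 11.63 to 11.64).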

How the results depend on the processing

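The count of Rab probe sets called was 1 for stress minus control, 1 for stress with linalool minus stress, 1 for the averaged linalool effect and 0 elsewhere, and it shifted by single probe sets. With the deposited values left unnormalized it was 0 for stress minus control, 0 for the averaged linalool effect and 1 for stress with linalool minus linalool (Rab22a 1372862_at, 0.60). With only the compared groups fitted it was 0 for stress minus control. With a block for high BioC signal it was 0 for the averaged linalool effect, 1 for the averaged stress effect and 1 for stress with linalool minus linalool. On low BioC arrays only it was 0 for stress with linalool minus stress, 0 for the averaged linalool effect and 1 for the averaged stress effect. With the beta-actin ratio added to the model it was 2 for stress minus control, 1 for the averaged stress effect and 1 for the interaction (Rab14, 0.82, adjusted p = 0.0182). At the 60th percentile filter it was 1 for the averaged stress effect (Rab31). Without control rats 1 and 2, chosen after seeing the data, it was 0 for stress minus control, 1 for the averaged stress effect and 1 for stress with linalool minus control. With single arrays left out the count ranged from 1 to 1 for stress minus control, 1 to 2 for stress with linalool minus stress, 1 to 3 for the averaged linalool effect, 0 to 1 in each of stress with linalool minus control, stress with linalool minus linalool and the averaged stress effect, and 0 for linalool minus control and the interaction. The cause of these shifts was not tested. With the replicate block the Rab14 differences were -0.60, 0.86 and 0.50 (adjusted p = 0.0146, 0.00373 and 0.0135) and no Rab call changed. Signs reversed only with the deposited values, for Rab14 in linalool minus control (-0.04), Rab28 in stress with linalool minus linalool (0.14), Rab2a 1392681_at in stress with linalool minus control (0.01) and Trappc5 in the averaged stress effect (0.01). Leaving the values unnormalized moved the median of all probe sets by 0.32, 0.16 and 0.21 in the last 3 of these and by -0.17 in the first. Of 712 recomputed Rab changes 688 kept direction and side of the threshold, 7 lost and 14 gained a call and 3 reversed. Most of these changes were uncalled in the reported fit, so staying uncalled counts as kept. The Rab14 calls held in 25 of 28 settings for stress minus control and 27 of 28 for stress with linalool minus stress. For the averaged linalool effect the call held in 24 of 27. Over all probe sets the calls ranged from 42 to 258 for stress minus control (168 in the reported fit), 0 to 389 for stress with linalool minus stress (121), 0 to 366 for the averaged linalool effect (133), 77 to 1111 for stress with linalool minus linalool (315), 457 to 1040 for the averaged stress effect (789) and 203 to 1065 for stress with linalool minus control (750). It was at most 2 for linalool minus control (0) and 14 for the interaction (0).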
